A study of Mus musculus with 6 samples.

Results

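The annexins are a family of genes for proteins that bind membrane phospholipids when calcium rises. The 10 annexin genes *Anxa1* to *Anxa7*, *Anxa10*, *Anxa11* and *Anxa13* were taken by symbol from read counts of 56884 mouse genes. The annotation holds 12 annexin symbols among them, and the other two, *Anxa8* and *Anxa9*, are given beside the 10. The counts came from 6 RNA sequencing libraries of cells sorted for Lgr5-GFP, a reporter of intestinal stem cells, out of epithelial organoid cultures of small intestine. Libraries labelled EtOH (the ethanol vehicle) and libraries labelled 4-OHT (0.5 µM 4-hydroxytamoxifen) were made 4 or 6 days after treatment. There were 2 libraries per label at day 6 and 1 per label at day 4.

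All groups, the EtOH libraries included, shared a genotype. *Ythdf2*, which encodes a reader of methylated adenosine in RNA, was floxed on both alleles (Ythdf2 fl/fl). The Villin-CreERT2 transgene supplied a Cre recombinase that 4-OHT activates, under a promoter active throughout the intestinal epithelium. The Lgr5-EGFP-IRES-CreERT2 allele supplied both the sorted reporter and a further CreERT2 under *Lgr5* control. The age of the mice and whether libraries came from separate cultures or animals are not given in the sources used here, so p-values measure only the spread between these libraries, which may be technical. No 4-OHT library without the floxed gene was analysed here, so effects of the drug or of Cre itself cannot be told apart from those of the floxed gene.

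Annexins share a core that binds phospholipid through calcium, and differ in an N-terminal tail that binds partner proteins such as S100 proteins. They are known for linking membranes to the actin cortex, for vesicle traffic and for patching torn membranes. In the gut, *Anxa13* is an epithelial annexin of apical membranes, *Anxa10* is best known from stomach epithelium, and *Anxa1* is known for its part in the closing of epithelial wounds.

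The libraries held 14345379 to 21461835 gene counts, and mitochondrial genes took 3.65% to 4.64% of them. The level of *Ythdf2* serves as a check on the labels. On day 6 it stood at 82.7 and 76.0 CPM (read counts scaled to library size with edgeR's TMM factors) for EtOH and at 208 and 204 CPM for 4-OHT, and on day 4 at 76.1 and 168 CPM in the same order. The floxed gene was thus higher in every library labelled 4-OHT, which goes against a loss of its transcript, and whether the floxed part was removed cannot be read from counts per gene. The labels are therefore used as names only, and each direction below is that of the libraries labelled 4-OHT. The 2 day 6 libraries of a label are called a pair. *Lgr5* itself, the defining marker of the sorted cells, was at 209 to 368 CPM in all 6 libraries. At day 6 it stood at 250 and 344 CPM for EtOH and at 209 and 227 CPM for 4-OHT, and at day 4 at 368 and 274 CPM. The day 6 difference was not called in the test below (log2 fold change −0.45, adjusted p 0.413 by edgeR).

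Of the 10 annexins, 5 were called higher at day 6 in the pair labelled 4-OHT, and 0 were called lower. A gene was called where the Benjamini-Hochberg adjusted p of edgeR's quasi-likelihood test over 14066 genes was under 0.05, which held for 2.51% of all genes, 2.27% in the higher direction and 0.235% in the lower. In order of fold change these were *Anxa10*, *Anxa3*, *Anxa1*, *Anxa5* and *Anxa13*. All 10 had a log2 fold change above 0, as did 48.2% of all genes, and both 4-OHT libraries above both EtOH libraries, as did 20.5%. The median day 6 log2 fold change was 0.68 over the 10 annexins and −0.01 over all genes. All 10 passed the filter on low counts, with at least 78 counts in each day 6 library. The count of 5 fell to 2 without EtOH replicate 1, and to 3 without EtOH replicate 2 or without 4-OHT replicate 2.

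**Figure D1:**
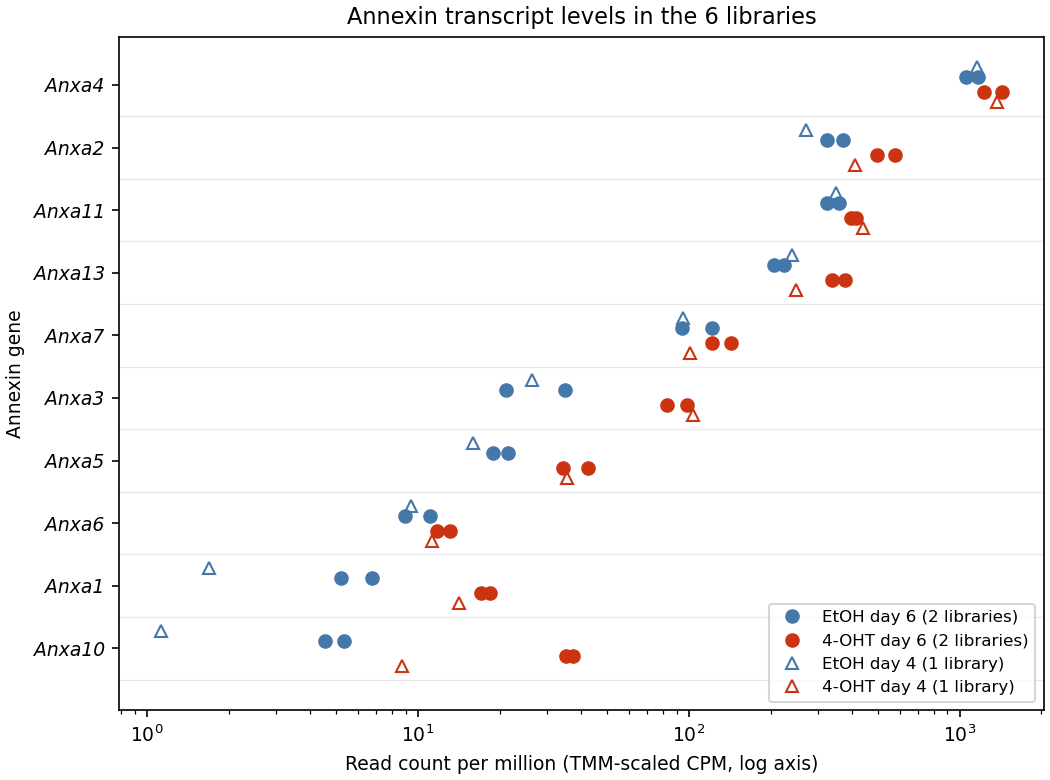
Each row is an annexin gene and each symbol 1 library, with the TMM-scaled CPM on a log axis; filled circles are day 6, open triangles day 4, blue EtOH and red 4-OHT. *Anxa10* shows the widest gap at day 6, from 4.52 and 5.35 CPM to 35.2 and 37.4 CPM, whereas the *Anxa7* values of EtOH and 4-OHT almost touch.

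*Anxa10* had the largest change of the 10 members. It spans chromosome 8 from 62510076 to 62576184 (GRCm39, minus strand, ENSMUSG00000031635), and its protein is an atypical annexin that has lost most of its calcium sites. At day 6 it had 101 and 78 counts in the EtOH pair and 803 and 657 in the pair labelled 4-OHT. These correspond to means of 4.93 ± 0.584 CPM (SD, n = 2) and 36.3 ± 1.54 CPM (SD, n = 2). The groups lay far apart, and the 4-OHT libraries were within a few CPM of each other. The edgeR fit gave a log2 fold change of 2.87 (standard error, SE, 0.23), that is 7.32-fold, at an adjusted p of 0.000274. At day 4 the gene was rarer in both libraries, with 22 counts (1.13 CPM) for EtOH and 129 counts (8.76 CPM) for 4-OHT. The day 4 ratio was 7.78, and its exact binomial 95% interval, which reflects counting error alone, ran from 4.92 to 12.8. The day 4 4-OHT library was the lowest of the 4-OHT libraries, and still above every EtOH library.

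The sequence before the *Anxa10* start is shown because this gene had the largest change of the 10, and because its 250 bases overlap no annotated exon. It was taken from RefSeq's promoter table (build GRCm38.p6) and placed on GRCm39 by an exact match, at chr8:62576228-62576477 on the minus strand, and is written 5′ to 3′. Capitals mark matches to the AP-1 motif TGANTCA and to the TATA box TATAAA.
Anxa10 upstream: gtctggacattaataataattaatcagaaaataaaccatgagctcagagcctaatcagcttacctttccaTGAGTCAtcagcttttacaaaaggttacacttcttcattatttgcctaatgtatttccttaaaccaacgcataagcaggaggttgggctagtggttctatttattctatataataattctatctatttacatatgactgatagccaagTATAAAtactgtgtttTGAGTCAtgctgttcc
The AP-1 matches lie at bases 71 to 77 and 235 to 241 of the window, and the TATA box at bases 219 to 224, counted from 1 at the left. AP-1 is the Fos and Jun family of factors, and the TATA box is a core promoter element. Over the whole 300-base windows of RefSeq, which run 50 bases past the start, 7.81% of 32851 windows hold TGANTCA and 13.6% hold TATAAA on either strand. GENCODE places the *Anxa10* start 43 bases downstream of the RefSeq one.

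Of the 10 annexins, 7 had a RefSeq window, and *Anxa3*, *Anxa6* and *Anxa13* had none. Both strands were also searched for GGAATG (TEAD), CAAAGTCCA (HNF4), TTTATNG (CDX), CTTTGAT (TCF/LEF) and the interferon response element ISRE, which 14.7%, 0.475%, 10.9%, 3.73% and 3.44% of windows hold. The *Anxa1* window holds 1 TEAD match at bases 15 to 20 and a CDX match at bases 218 to 224, which overlaps a TATA box at bases 219 to 224. The *Anxa2* window holds 1 AP-1 match at bases 156 to 162 and a TATA box at bases 234 to 239. The windows of *Anxa4*, *Anxa5*, *Anxa7* and *Anxa11* hold none of these letters. A match is a description of the letters, and binding at these places was not measured here. The *Anxa1* and *Anxa5* windows lie wholly in annotated exons and are not printed.

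*Anxa3*, an annexin first known from neutrophil granules and also made in epithelia, had the next largest change. It spans chromosome 5 from 96940544 to 96993828 (plus strand, ENSMUSG00000029484). Its counts were 399 and 600 in the EtOH pair and 1778 and 1831 in the pair labelled 4-OHT, or 21.1 and 34.8 CPM against 82.7 and 98.0 CPM. The EtOH replicates differed from each other by more, in proportion, than the 4-OHT replicates did, and the groups did not overlap. The edgeR log2 fold change was 1.69 (SE 0.24), or 3.23-fold, at an adjusted p of 0.00499. At day 4 it was at 26.3 CPM (EtOH) and 104 CPM (4-OHT), a ratio of 3.94 (counting interval 3.57 to 4.37). The day 4 value of each label lay near the day 6 values of that label.

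*Anxa1*, which limits phospholipase activity and inflammation and acts on formyl peptide receptors once secreted, spans chromosome 19 from 20350792 to 20368374 (minus strand, ENSMUSG00000024659). It had 98 and 117 counts in the EtOH pair and 396 and 318 in the day 6 pair labelled 4-OHT, or 5.98 ± 1.13 CPM (SD, n = 2) against 17.7 ± 0.986 CPM (SD, n = 2). The edgeR log2 fold change was 1.57 (SE 0.26) at an adjusted p of 0.0120. Without EtOH replicate 1 it was 1.39, with an adjusted p of 0.102. At day 4 the EtOH library had 33 counts (1.69 CPM) and the 4-OHT library 209 counts (14.2 CPM). The day 4 ratio of 8.40 (counting interval 5.80 to 12.5) was above the 2.96-fold day 6 difference, but the change between days was not called (interaction adjusted p 0.9999 by edgeR), and its EtOH level was lower on day 4 than on day 6.

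*Anxa5*, known for binding the phosphatidylserine that dying cells expose, had a smaller fold change. It spans chromosome 3 from 36503072 to 36530126 (minus strand, ENSMUSG00000027712). It was at 18.9 and 21.5 CPM in the EtOH pair and at 34.4 and 42.3 CPM in the pair labelled 4-OHT. The replicates of each label lay closer to each other than to the other label. The edgeR log2 fold change was 0.92 (SE 0.21) at an adjusted p of 0.0483, just inside the threshold. The adjusted p was 0.0503 with median-of-ratios scaling, 0.0515 with edgeR's older quasi-likelihood method and 0.0763 without the filter. It was 0.193 without EtOH replicate 1, 0.0738 without EtOH replicate 2 and 0.395 without 4-OHT replicate 2. At day 4 the values were 16.0 CPM (EtOH) and 35.5 CPM (4-OHT), a ratio of 2.22 (counting interval 1.93 to 2.57). Of its exon bases, 6.46% overlap *1810062G17Rik*, a counted gene on the other strand. How reads in the shared bases were counted cannot be told, since the strand setting is not given.

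*Anxa13*, the gut epithelial annexin, spans chromosome 15 from 58202792 to 58261129 (minus strand, ENSMUSG00000055114). At day 6 it was at 224 and 205 CPM in the EtOH pair and at 378 and 336 CPM in the pair labelled 4-OHT. The groups did not overlap, and the edgeR log2 fold change was 0.73 (SE 0.16) at an adjusted p of 0.0455. The call was lost, at adjusted p of 0.0945 to 0.370, whichever day 6 library was left out, and with edgeR's older method (0.0656) or without the filter (0.0622). At day 4 the libraries stood at 241 CPM (EtOH) and 249 CPM (4-OHT), a ratio of 1.04 (counting interval 0.991 to 1.08). The day 4 4-OHT library was thus close to the EtOH libraries for this gene, and not to the other 4-OHT libraries.

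*Anxa2*, which joins S100a10 in a complex at the cell cortex that also binds plasminogen, was the second member by level per length. It spans chromosome 9 from 69360542 to 69399077 (plus strand, ENSMUSG00000032231). It was at 370 and 323 CPM in the EtOH pair and at 493 and 578 CPM in the pair labelled 4-OHT. The groups did not overlap, but the log2 fold change of 0.62 (SE 0.17) had an adjusted p of 0.122 by edgeR and was not called. It was called with DESeq2 (adjusted p 0.0279). At day 4 the values were 272 CPM (EtOH) and 410 CPM (4-OHT), a ratio of 1.51 (counting interval 1.46 to 1.57), close to the day 6 difference of 1.54-fold.

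The other 4 members were not called at day 6 with any tool or setting tried. *Anxa4*, an annexin of secretory epithelia, on chromosome 6 from 86713675 to 86771064 (minus strand, ENSMUSG00000029994), had the highest level per length. It was at 1053 and 1171 CPM in the EtOH pair and at 1231 and 1427 CPM in the pair labelled 4-OHT. Its log2 fold change was 0.25, with a 95% interval of −0.17 to 0.68 and an adjusted p of 0.767 by edgeR. *Anxa11* (chromosome 14 from 25842547 to 25887229, plus strand), whose long tail tethers RNA granules to lysosomes, was at 357 and 323 CPM against 397 and 414 CPM. Its log2 fold change was 0.25, with an interval of −0.11 to 0.61. These abundant genes lay slightly higher in each 4-OHT library, by less than the test could separate from the spread between replicates. *Anxa7* (chromosome 14 from 20505328 to 20530201, minus strand), first described as a membrane fusion protein of secretory granules, was at 94.1 and 121 CPM against 122 and 143 CPM, with an interval of −0.11 to 0.70. *Anxa6* (chromosome 11 from 54869654 to 54924305, minus strand), the annexin with a duplicated core, was at 11.1 and 8.92 CPM against 13.2 and 11.8 CPM, with an interval of −0.25 to 0.88. These lower values also sat close together, and the *Anxa7* pairs were apart by less than 1 CPM at their nearest. The *Anxa6* interval is wide enough to include an increase near that of *Anxa5*, and those of *Anxa4* and *Anxa7* include the *Anxa2* change of 0.62. None of these 4 tests shows that its gene stayed the same. On day 4 the ratios of these genes were 1.19 for *Anxa4* (1158 CPM for EtOH and 1373 for 4-OHT), 1.26 for *Anxa11* (349 and 439 CPM), 1.06 for *Anxa7* (94.97 and 100.9 CPM) and 1.20 for *Anxa6* (9.44 and 11.3 CPM). The counting intervals of *Anxa7* (0.994 to 1.14) and *Anxa6* (0.964 to 1.48) include a ratio of 1. Of the *Anxa4* exon bases 12.2% overlap *Gm44036* and of the *Anxa11* exon bases 5.48% overlap *Plac9*, each on the other strand.

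**Figure D2:**
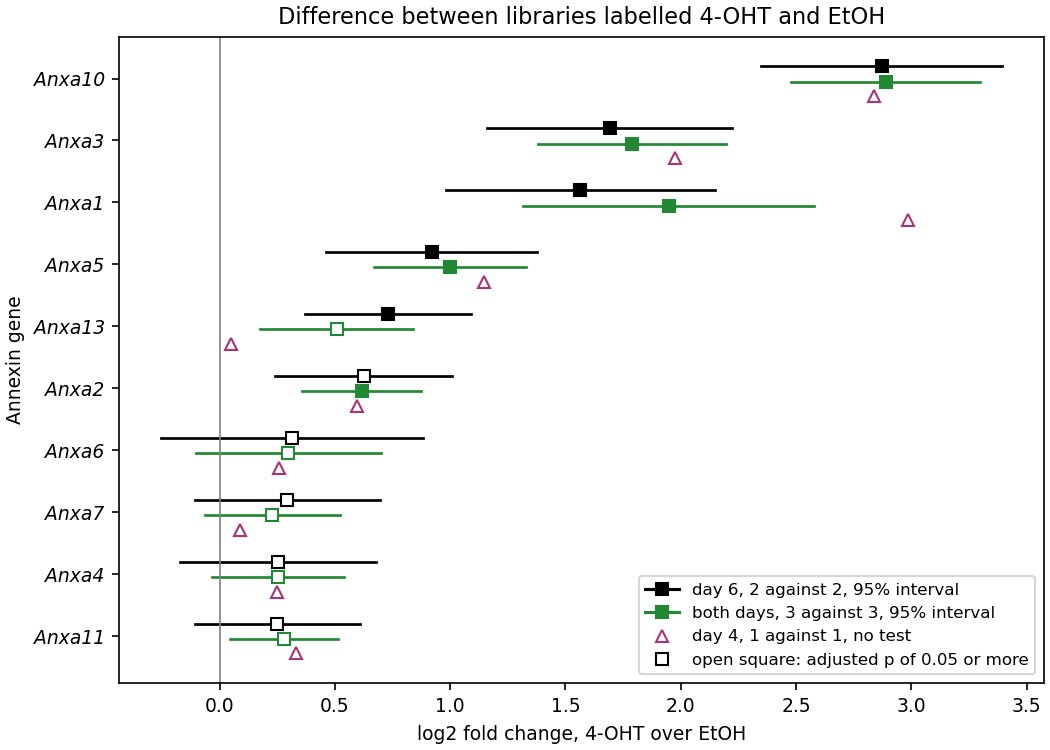
The log2 fold change of each annexin, 4-OHT over EtOH, with black squares for day 6, green squares for both days and triangles for day 4; lines are 95% intervals, open squares were not called, and day 4 has no test. *Anxa10*, *Anxa3*, *Anxa1* and *Anxa5* were called in both fits, *Anxa13* at day 6 alone (its day 4 value is 0.05) and *Anxa2* over both days alone.

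The 2 annexin symbols outside the 10 had few counts. *Anxa8*, best known from squamous epithelia, had 0 and 7 counts in the EtOH pair and 85 and 33 in the day 6 pair labelled 4-OHT, and on day 4 it had 12 (EtOH) and 49 (4-OHT). The count of 0 allows up to 0.159 CPM. Its adjusted p was 0.0428 by edgeR and rose to 0.320 without EtOH replicate 1 and to 0.0798 without EtOH replicate 2. It was 0.0597 without the filter and 0.0785 with edgeR's older method. The 4-OHT replicates themselves differed widely. *Anxa9*, an annexin with altered calcium sites, had 31 and 45 counts against 56 and 47, the groups overlapped in CPM, and it was not called (adjusted p 0.914 by edgeR).

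Over both days, with day as a term and 3 libraries per label, 5 of the 10 annexins were called higher and 0 lower, against 3.67% and 0.718% of 14060 genes. These were *Anxa10* (log2 fold change 2.89, adjusted p 4.4e-05), *Anxa3* (1.79, 0.000584), *Anxa1* (1.95, 0.00376), *Anxa5* (1.00, 0.00419) and *Anxa2* (0.62, 0.0145), all by edgeR. This fit shares its 4 day 6 libraries with the day 6 fit and is not independent of it. *Anxa13* was not called (0.51, adjusted p 0.103). The *Anxa2* call was lost without 4-OHT day 6 replicate 2 (adjusted p 0.0850), without the day 4 EtOH library (0.122), without the day 4 4-OHT library (0.120) and with no day term (0.0939). *Anxa13* was called with DESeq2 (adjusted p 0.0244), without the day 4 4-OHT library (0.0438 by edgeR) and without the day 4 EtOH library (0.0444). In 9 of the 10 members all 3 libraries labelled 4-OHT lay above all 3 labelled EtOH, as in 11.1% of all genes, and the exception was *Anxa7*.

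At day 4 alone, 4 of the 10 annexins were at least 2-fold higher in the library labelled 4-OHT, as were 4.69% of the 12865 genes that averaged 1 CPM or more on that day. They were *Anxa1*, *Anxa10*, *Anxa3* and *Anxa5*, in that order. Each label has 1 library there, so these values lack replicates. Whether the difference itself changed between the days was tested with an interaction term. It was called for 0 of 16031 genes by edgeR, with 297 genes (1.85%) at an unadjusted p under 0.05 and 2 genes called by DESeq2. Without 4-OHT day 6 replicate 1 it was called for 26 genes and without 4-OHT day 6 replicate 2 for 3, with 0 annexins among them. Among the annexins, *Anxa1* (day 4 minus day 6, log2 1.51, SE 0.53) and *Anxa13* (−0.67, SE 0.29) had unadjusted p of 0.0144 and 0.0401, and the adjusted p was 0.9999 for both. The other 8 members had interaction values of −0.20 to 0.29. Day and library series cannot be told apart, since the day 4 libraries carry another style of name. Those libraries also had more genes detected, 24195 (4-OHT) and 26521 (EtOH) against 19522 to 20622 at day 6. Entries assigned to no gene took 25.0% (4-OHT) and 26.7% (EtOH) there, against 19.3% to 21.0% at day 6.

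Read level (CPM, not per length) was set beside the calls. By mean over the 6 libraries, 5 members lay between 10 and 100 CPM, where 2.20% of 7000 genes rose at day 6. *Anxa1*, *Anxa10*, *Anxa3* and *Anxa5* rose there and *Anxa6* was not called. Between 100 and 1000 CPM, where 1.44% of 2298 genes rose, *Anxa13* was called and *Anxa2*, *Anxa7* and *Anxa11* were not. Above 1000 CPM, where 0 of 82 genes were called higher, lay *Anxa4*. *Anxa6* and *Anxa1* had means of 10.9 and 10.6 CPM over the 6 libraries, with day 6 log2 fold changes of 0.31 and 1.57. That mean includes the rise of *Anxa1*, and in the EtOH pair *Anxa1* was the lower of them, at 5.98 CPM against 9.99 CPM for *Anxa6*, so they were not matched there. The difference between these fold changes was not tested. The SE of the members ran from 0.16 (*Anxa11*, not called) to 0.26 (*Anxa1*, called). Whether read level bears on which members were called was not tested.

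**Figure D3:**
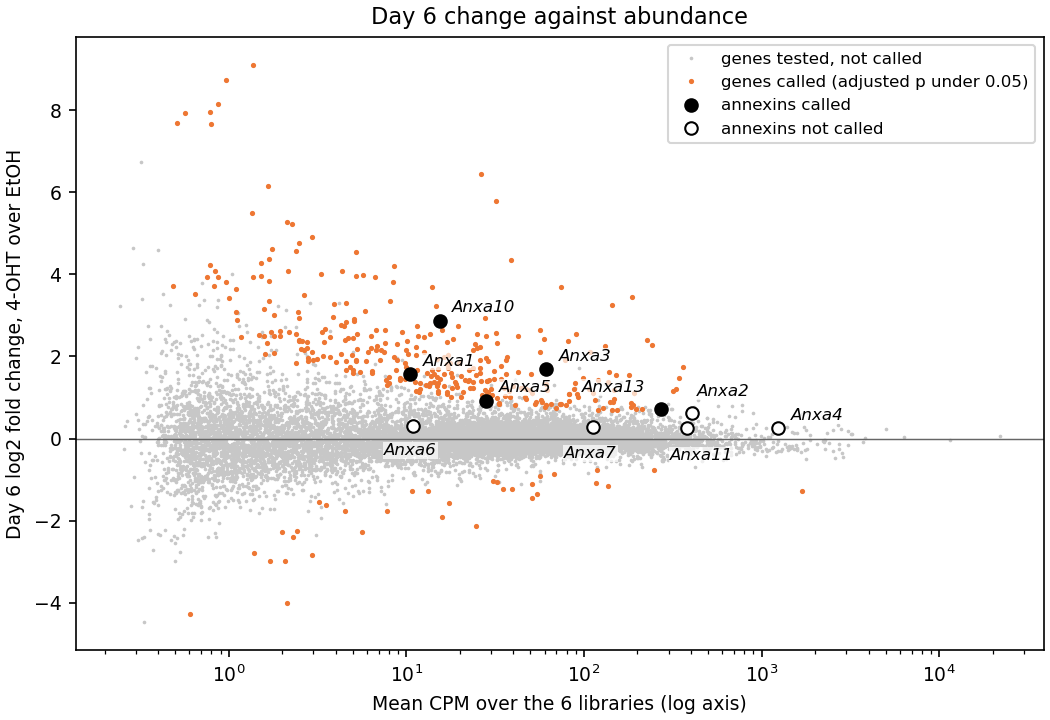
Day 6 log2 fold change (4-OHT over EtOH) against mean CPM over the 6 libraries on a log axis, with all 14066 tested genes as grey (not called) or orange (called) points and the annexins as large circles, filled where called. *Anxa1* and *Anxa6* share a mean read level near 10 CPM over all libraries with log2 fold changes of 1.57 and 0.31, and *Anxa4* at 1236 CPM lies where 0 of 82 genes were called higher.

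Levels were compared between genes as CPM per kilobase of the canonical transcript. With EtOH at day 6 the order was *Anxa4* at 513, *Anxa2* at 239, *Anxa11* at 141, *Anxa13* at 61.6, *Anxa7* at 37.8, *Anxa3* at 16.8, *Anxa5* at 11.7, *Anxa6* at 3.59, *Anxa1* at 3.44 and *Anxa10* at 2.80 CPM per kilobase. The EtOH replicates of *Anxa6* and *Anxa1* overlapped, as did those of *Anxa1* and *Anxa10*, so the order of these neighbours is not settled. In the libraries labelled 4-OHT, *Anxa10* stood at 20.5 CPM per kilobase, beside *Anxa5* at 22.1, and *Anxa1* stood at 10.2 against 4.48 for *Anxa6*. *Anxa3* at 54.5 then lay beside *Anxa7* at 46.4. The first 4 places were the same under both labels. With all exons of a gene as the length, *Anxa13* came before *Anxa11* and *Anxa10* before *Anxa1* and *Anxa6* in the EtOH pair. In the day 6 pair labelled 4-OHT that length put *Anxa10* at 15.8 CPM per kilobase and *Anxa5* at 4.52. It put *Anxa3* at 14.55 and *Anxa7* at 20.28, so the places of these genes depend on the length used.

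The 10 members together took 2160 and 2220 CPM in the day 6 EtOH libraries and 2807 and 3102 CPM in those labelled 4-OHT, and 2169 (EtOH) and 2745 CPM (4-OHT) at day 4. Shares were taken of the family's summed CPM per kilobase of the canonical transcript, and not of its reads. *Anxa4* made up 42.7% to 53.5% of that length-scaled sum in every library and *Anxa2* 18.8% to 26.7%. *Anxa10* went from 0.297% and 0.246% of it in the day 6 EtOH pair to 1.59% and 1.33% in the day 6 pair labelled 4-OHT. Most of the family's length-scaled level thus came from members that were not called at day 6.

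Markers of intestinal cell types moved with the labels as well. Of 20 enterocyte genes, 13 were called higher and 0 lower at day 6, beside 2.27% and 0.235% of all genes. The median log2 fold change of these 20 was 1.60, beside −0.01 over all genes. Their summed level was 2723 and 2876 CPM in the EtOH pair and 6657 and 5488 CPM in the pair labelled 4-OHT, and 2250 (EtOH) and 2996 CPM (4-OHT) at day 4. Of 12 stem cell genes, 2 fell and 0 rose, beside 0.235% and 2.27% of all genes. The list summed to 5209 and 4053 CPM against 3007 and 2438 CPM. *Olfm4*, a stem cell marker with the most reads of that list, fell by 1.27 on the log2 scale (adjusted p 0.0312 by edgeR) and made up most of that difference. Without it the list summed to 1906 and 1810 CPM against 1688 and 1454 CPM. The list did not move as one, since 4 of its 12 genes had log2 fold changes above 0. *Igfbp4*, a secreted binder of insulin-like growth factors named after its values were seen, was not called at day 6 (0.62, adjusted p 0.110 by edgeR) and was called higher over both days (0.68, adjusted p 0.00856). The part of these lists in the annexin differences was not tested. In bulk libraries fewer cells of a type and less RNA per cell cannot be told apart.

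Genes known from fetal-like and wound epithelium also moved with the labels. Of 15 listed, with no annexin among them, 13 were tested at day 6. Of these, 9 were called higher and 0 lower, beside 2.27% and 0.235% of all genes, and the median log2 fold change was 2.12. The 15 genes summed to 267 and 357 CPM in the EtOH pair and to 727 and 733 CPM in the pair labelled 4-OHT, and to 434 (EtOH) and 657 CPM (4-OHT) at day 4. *Ccn1*, a matricellular protein and YAP target with the most reads of them, was at a log2 fold change of 0.00 (adjusted p 0.9995 by edgeR). *Spp1* was at 0 in every library. This list is led by reads of *Ccn1* and *Areg*, so its sum says little of the rarer genes. The list was chosen with earlier results of these data known, so its direction is no independent evidence, and its part in the annexin differences was not tested.

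*Anxa10* is known from the stomach, so gastric surface genes were examined beside it. Of 10 listed, 5 were tested at day 6, and 2 (beside 2.27% of all genes) were called higher and 0 lower. *Gkn3*, a gastrokine with the most reads of them, was not called (log2 fold change −0.55, adjusted p 0.772 by edgeR). The called genes, named after their values were seen, were *Tff2*, a mucosal trefoil peptide, and *Ctse*, an aspartic protease. *Tff2* was at 0.265 and 1.22 CPM in the EtOH pair and at 8.47 and 14.4 CPM in the pair labelled 4-OHT. *Ctse* was at 0 and 0.464 CPM against 6.09 and 6.42 CPM, where the count of 0 allows up to 0.159 CPM. *Tff1*, a defining product of gastric surface cells, was at 0 in all 6 libraries, and *Sox2*, a gastric transcription factor, was at 0 in the 4 day 6 libraries. *Gkn1* (8 and 17 counts for EtOH and 4-OHT), *Gkn2* (10 and 7) and *Muc5ac* (3 and 5), further gastric surface products, had counts in replicate 2 of each label at day 6 and 0 in the other 4 libraries. Their counts thus went with the replicate number and not with the label. Those of *Tff2* and *Ctse* went with the label, but in the EtOH pair they were also higher in replicate 2 (5 and 21 counts, and 0 and 8). The list summed to 23.5 and 14.3 CPM in the EtOH pair and 30.6 and 33.6 CPM in the pair labelled 4-OHT. *Gkn3* alone was at 21.7 and 9.21 CPM in the EtOH pair and at 14.2 and 6.85 CPM in the pair labelled 4-OHT. The sum thus says little of the rarer genes.

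The secretory and tuft cell lists had few calls. Of the goblet genes 2 of 11 were called higher at day 6, beside 2.27% of all genes. Of the Paneth genes 0 of 9 were called higher and of the enteroendocrine genes 0 of 12. Of the 6 tuft genes tested, all had log2 fold changes below 0, with a median of −1.50, whereas 48.2% of all genes lay above 0. Of these 6, 1 was called lower, beside 0.235% of all genes. The tuft list summed to 42.5 and 22.9 CPM in the EtOH pair and to 13.3 and 10.97 CPM in the pair labelled 4-OHT. At day 4 it summed to 12.4 (EtOH) and 12.2 CPM (4-OHT). The listed gene *Alox5* was at 0.257 (EtOH) and 3.26 CPM (4-OHT) there, so these like sums do not show that the other tuft genes were level. The median day 4 log2 fold change of the 5 tuft genes that averaged 1 CPM or more was −0.17. In the secretory and tuft lists the genes of most reads, *Fcgbp* (a mucus protein), *Lyz1* (lysozyme), *Chgb* (a granin) and *Trpm5* (a cation channel), were not called. At day 4 the Paneth list summed to 405 CPM (EtOH) and 1672 CPM (4-OHT) and the enteroendocrine list to 64.0 and 293 CPM. These sums were lowest in the day 4 EtOH library, which also held the lowest *Anxa1* and *Anxa10* values, and the part of this in the day 4 ratios was not tested.

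Cells other than epithelium left few reads. The immune list summed to 5.13 to 10.6 CPM over the 6 libraries, most of it *Cd68*, and *Ptprc*, the defining leukocyte gene, was at 0 in the day 6 libraries. The fibroblast list summed to 4.36 to 12.7 CPM, most of it *Vim*, and *Lum* was at 0 in all 6. The endothelial list, led by *Pecam1*, summed to 0.290 to 1.69 CPM, with 0 of its 4 genes passing the filter. None of these lists had a gene called at day 6.

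**Figure D4:**
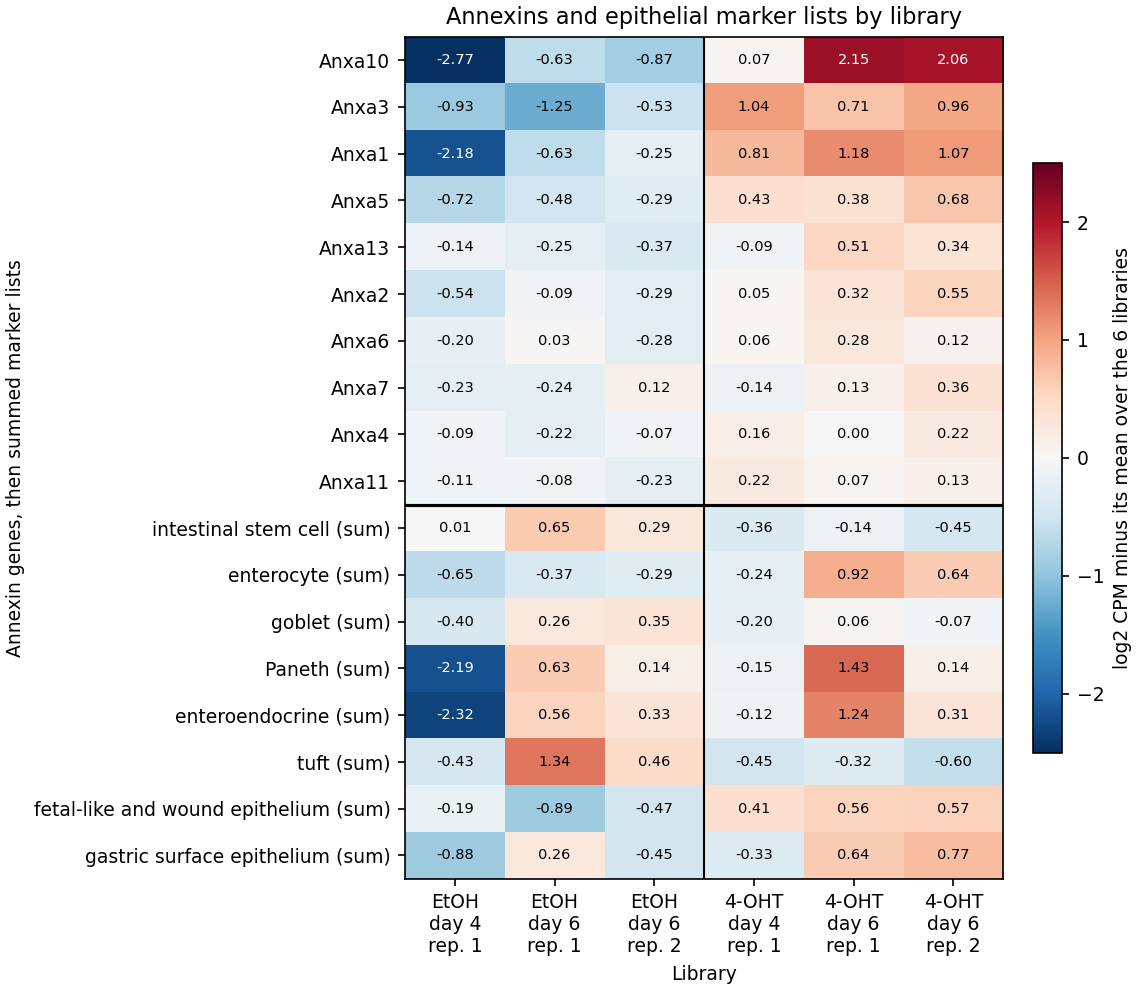
Rows are the 10 annexins and then the summed CPM of 8 epithelial marker lists, columns the 6 libraries, and each cell is the log2 CPM minus the row's mean over the 6 libraries. *Anxa10* runs from −2.77 in the day 4 EtOH library to 2.15 in day 6 4-OHT replicate 1, and the enterocyte sum is highest in the day 6 4-OHT libraries, at 0.92 and 0.64.

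Among the known partners of annexins, the S100 genes had higher values in the libraries labelled 4-OHT. *S100a10*, the partner of *Anxa2*, was at 118 and 112 CPM in the EtOH pair and at 157 and 167 CPM in the day 6 pair labelled 4-OHT, and at 95.5 (EtOH) and 141 CPM (4-OHT) at day 4. It was not called at day 6 (log2 fold change 0.49, adjusted p 0.190 by edgeR) and was called over both days (0.52, 0.0172), as was *Anxa2*. *S100a11*, a partner of *Anxa1*, had 0.53 (adjusted p 0.191) at day 6 and 0.62 (0.0173) over both days. *S100a6*, which binds several annexins and also stands in the fetal-like list, rose at day 6 by a log2 fold change of 2.15 (adjusted p 0.00499 by edgeR), from 6.46 and 10.5 CPM to 29.1 and 46.1 CPM. *S100a4* was at 0 in 5 libraries. Thus 1 of 3 tested S100 genes was called higher at day 6, beside 2.27% of all genes, and 3 of 3 over both days, beside 3.67%.

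Of 6 other proteins that bind annexins or act with them, 2 were called higher at day 6 and 0 lower. Over all genes these shares were 2.27% and 0.235%. *Sri*, which encodes the calcium-binding sorcin, a partner of *Anxa7*, was at 203 and 194 CPM in the EtOH pair and at 427 and 455 CPM in the pair labelled 4-OHT (log2 fold change 1.15, adjusted p 0.00454 by edgeR). *Plat*, the tissue plasminogen activator, which uses the *Anxa2* and *S100a10* complex as a receptor, was at 7.15 and 10.7 CPM against 27.9 and 25.8 CPM (1.59, adjusted p 0.00910). *Sri* thus rose, and its partner *Anxa7* was not called. The formyl peptide receptors *Fpr1*, *Fpr2* and *Fpr3*, through which secreted annexin A1 acts, had 0 counts in all 6 libraries, which allows a level of up to 0.204 CPM in the shallowest library.

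Of 10 membrane repair genes, 8 were tested, and 1 (beside 2.27% of all genes) rose at day 6. This was *Capn2*, a calcium-activated protease, at 6.41 and 9.27 CPM in the EtOH pair and at 22.8 and 27.7 CPM in the pair labelled 4-OHT (log2 fold change 1.69, adjusted p 0.00790 by edgeR). Of 10 copines and other calcium-dependent membrane binders, 8 were tested and 0 were called at day 6. Over both days 2 genes of each of these lists were called higher, beside 3.67% of all genes. The medians at day 6 were 0.22 for membrane repair and 0.50 for the copine list, beside 0.68 for the annexins.

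The pattern of each gene over the 6 libraries was compared by the root mean square difference of log2 CPM, each gene centred on its own mean. Of 10112 protein-coding candidates, those most like *Anxa10* were *Krt20* at a difference of 0.22, *Gda* at 0.29 and *2010106E10Rik* at 0.31. *Krt20*, a keratin of differentiated enterocytes and a member of the enterocyte list, was at 22.6 and 19.5 CPM with EtOH, 144 and 122 CPM in the day 6 pair labelled 4-OHT, and 3.44 (EtOH) and 26.6 CPM (4-OHT) at day 4. Like *Anxa10* it was lowest in the day 4 EtOH library. *Gda* encodes guanine deaminase. Those most like *Anxa4* were *Afg3l2*, *Eml2* and *Tmem38b*, at 0.03 to 0.04, genes that also varied little. Within the family *Anxa4* and *Anxa11* were closest, at 0.10, and *Anxa4* and *Anxa10* farthest apart, at 1.64. *Anxa1* and *Anxa3*, with like day 6 fold changes, were 0.62 apart.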

How the data were processed

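RNA sequencing of 6 libraries was used, grouped by the treatment and day in their titles. The authors deposited raw counts per gene, not normalized, 1 file per library; STAR and mm39 are named per the submitters' processing notes, and the strand setting and annotation release are not given in the sources used here. Summary lines for reads in no gene (19.3% to 26.7% of entries) stayed out of library sizes and tests. Identifiers were named from GENCODE M39 (GRCm39), which matched 56323 of 56884.

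Counts were tested with edgeR 4.0.16 in R 4.3.3 (TMM scaling, filterByExpr with a minimum count of 10, glmQLFit and glmQLFTest, Benjamini-Hochberg adjustment over all genes tested). The SE is the absolute log2 fold change over the square root of F. Day 4 fold changes, with a prior count of 2, have no test. The scripts were tested on simulated data. The day 6 replicates differed by more than sampling noise (chi-square per degree of freedom 23.6 and 16.5), so none was counted as a duplicate. At 1 CPM a library has about 14 to 21 counts, and intervals and limits for counts of 0 cover counting error only, since no molecular identifiers are mentioned.

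The members, gene lists, motifs and tests were chosen with earlier results of these data known. Named were all 10 members; of each partner list the genes called at day 6, at most 4, with *S100a10* and *S100a11*; the gene of highest mean CPM in each cell type list; and the 3 genes of nearest pattern to the member of largest change and to the member of highest mean CPM. Both forms of edgeR's quasi-likelihood test were seen before the current form was taken as the main one, because it gave the counts of genes known from earlier processing of these data; the older form is given as an alternative chosen after seeing the data. The use of canonical transcript lengths and of the mean over 6 libraries for abundance was also set after values were seen. Alternatives were median-of-ratios scaling, other filters, DESeq2 1.42.0, other sets of libraries or terms, a replicate block and leaving out each library in turn. A gene that this rule names is not reported here. Protein sequences were not used here.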

Additional observations from a re-analysis of the deposited data

How the results depend on the processing

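*Anxa10* and *Anxa3* were called at day 6 and over both days in all alternatives run, with adjusted p of at most 0.00922 and 0.0323 at day 6 by edgeR or DESeq2. The day 6 count of 5 annexins was 3 without the filter and 3 with edgeR's older quasi-likelihood method, 6 with DESeq2, and 2 to 4 when a library was left out. Those fits have 1 residual degree of freedom, and the lone library of a label is assumed to vary like the other group. All genes called at day 6 numbered 353, and 99 to 409 when a library was left out, with 99 without EtOH replicate 1. Over both days 617 genes were called, 361 with no day term and 361 to 699 when a library was left out; the annexins called there were 4 to 6 in all alternatives. The interaction was called for 0 genes, 2 with DESeq2 and 0 to 26 when a day 6 library was left out. Causes of these changes were not tested.

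Most interaction values near 0 had no stable sign. *Anxa4* was −0.016 with median-of-ratios scaling, −0.029 without the filter and −0.017 with DESeq2. When a day 6 library was left out, the interaction ran from −0.124 to 0.116 for *Anxa4*, −0.153 to 0.102 for *Anxa2*, −0.095 to 0.599 for *Anxa3*, −0.229 to 0.107 for *Anxa6* and −0.055 to 0.213 for *Anxa10*. The fold change of *Anxa9* ran from −0.026 to 0.634 at day 6 and from −0.073 to 0.277 over both days when a library was left out, below 0 without EtOH day 6 replicate 1. The interaction of *Anxa1* ran from 1.32 to 1.68 and that of *Anxa13* from −0.75 to −0.60. Leaving out a day 4 library was not run for the interaction, which cannot be fitted without it.

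The labels do not say that replicate numbers pair libraries. Across 14066 genes, which are not independent, replicate 1 minus replicate 2 correlated at 0.27 between the labels at day 6. With the replicate block 839 genes and 6 annexins were called at day 6, *Anxa2* among them (adjusted p 0.0389 by edgeR), and 873 genes and 5 annexins over both days. With 2 replicates per label at day 6 and 1 at day 4, genes at few counts such as *Anxa8* and *Anxa9* are the least certain.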
